A study of Mus musculus with 6 samples.

Results

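The 10 genes of glucose breakdown described here were followed in the cortex of mice that lack HtrA2, a protease between the mitochondrial membranes. They are the hexokinase genes Hk1 and Hk2, the phosphofructokinase genes Pfkl, Pfkm and Pfkp, the regulator Pfkfb3, the aldolase gene Aldoa, the phosphoglycerate kinase gene Pgk1 and the lactate dehydrogenase genes Ldha and Ldhb. The rule uses gene names and no measured value, though the list was drawn up with earlier results of these data known, and it leaves out other glycolysis enzymes, which are described further on. Every probe set that the array annotation gives to one of the 10 genes alone was taken. This gave 25 probe sets for 10 genes, among 45037 probe sets tested and 18193 genes named in all. The samples were cortex of HtrA2 knockout mice and of wild type littermates at postnatal day 29, 3 per genotype, with 1 Affymetrix array each. The labels do not state strain, sex or the kind of HtrA2 allele. They also do not say that the arrays of a group hold different animals. Levels of Y-linked genes, given further on, differ within each group, so its 3 arrays are not all from 1 animal. Some arrays of a group may still be repeats, so p-values cover only the spread among these samples, which may be technical in part. The submitters describe the region as free of neuron loss. Levels are the deposited RMA values on the log2 scale, a fold change is knockout minus wild type on that scale with ± its standard error, and n = 3 arrays in each group throughout. A probe set was called at an adjusted p under 0.05 in limma, adjusted by Benjamini-Hochberg over the whole table.

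Glycolysis turns glucose into pyruvate in the cytosol and yields ATP without oxygen. Hexokinase traps glucose in the cell, phosphofructokinase commits it to the pathway, aldolase splits the sugar, phosphoglycerate kinase makes ATP, and lactate dehydrogenase interconverts pyruvate and lactate with the recycling of NADH. In brain, neurons and glia both express the pathway, astrocytes are known for lactate release, and lactate dehydrogenase is a tetramer of A subunits, which predominate in tissues that make lactate, and B subunits, which predominate in tissues that oxidise it.

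One of the 10 genes passed the test: Ldha fell in knockout cortex, while the 4 probe sets of Ldhb and the single probe set of Pfkm had fold changes between -0.10 and 0.04. The smallest p-values after it belonged to 2 phosphofructokinase genes, Pfkl and Pfkp, and neither passed. Of the 25 probe sets 24 had a lower mean in the knockout, and their median fold change was -0.14, against 0.005 over all tested probe sets, of which 48.7% were lower. The call rate has to be read against the series: 1 of 25 probe sets was called, and of all 45037 probe sets 1.77% were called in either direction and 0.884% as lower. At an unadjusted p under 0.05, 8 of the 25 met it, all lower, against 16.9% of all tested probe sets in either direction and 8.55% as lower. All 3 knockout arrays lay below all 3 wild type arrays at 12 of the 25, against 11.6% of all tested probe sets. Most of these transcripts are bright, and among probe sets at or above the 90th percentile of brightness the shares of lower ones at these limits were 11.9% and 21.2%. Of the 18 glycolysis probe sets in that range 5 and 10 met them. Several probe sets read the RNA of 1 gene, so these are not counts of separate genes. At the brightest probe set of each of the 10 genes, 9 were lower. There 4 had an unadjusted p under 0.05 in limma, and at 5 all knockout arrays lay below all wild type arrays. The count of called probe sets moved with single arrays: it was 3 without knockout replicate 2, which lay farther from the other arrays of its group than any other array, where 6.74% of all probe sets were called and 2.28% as lower, and 0 without any one of the other 5 arrays, where 5 or 6 had an unadjusted p under 0.05 in limma.

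**Figure D1:**
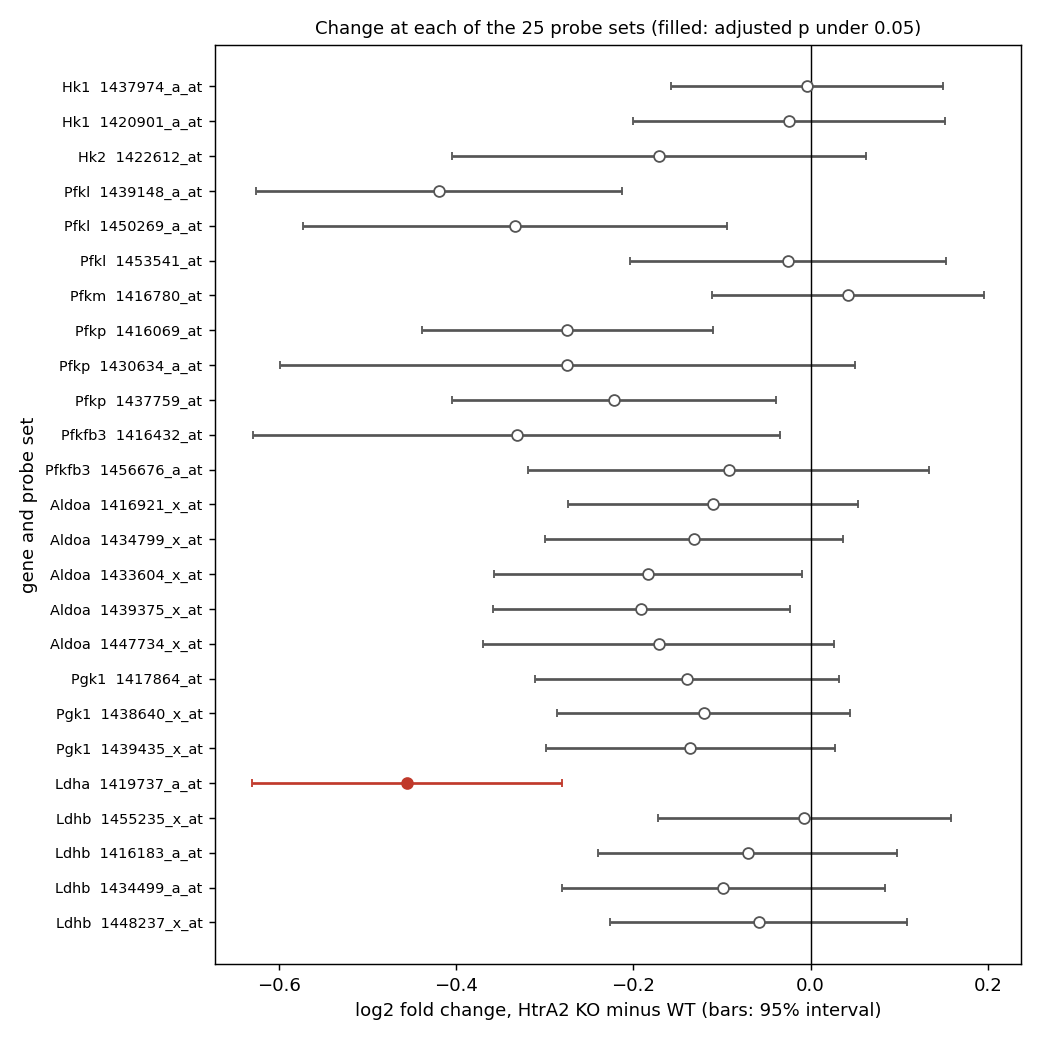
Log2 fold change of knockout minus wild type with its 95% interval for each probe set, grouped by gene. Filled marks passed an adjusted p under 0.05, which only Ldha did, and 24 of the 25 points lie left of zero.

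The array's own check came first. One probe set of Htra2 had levels of 6.42, 7.08 and 6.45 in the knockout and 8.89, 8.86 and 9.02 in wild type, and it fell by 2.27 ± 0.17 (limma adjusted p = 0.00227). The other read 9.35, 9.35 and 9.27 in the knockout and 8.23, 8.12 and 8.28 in wild type, and rose by 1.11 ± 0.08 (limma adjusted p = 0.00169). Its position in the gene and the kind of allele are not known here, so it checks no label. Marker lists bear on the tissue measured. The neuron list had a median brightness percentile of 98.7 among all probe sets. Its mean level was 12.12 to 12.19 in the knockout and 12.30 to 12.34 in wild type. Oligodendrocyte markers lay at 11.26 to 11.40 in the knockout against 11.57 to 11.73 in wild type, and microglial markers at 8.48 to 8.55 against 8.68 to 8.90. Of the measured markers 1 of 12 neuronal, 2 of 9 oligodendrocyte and 3 of 9 microglial ones fell and 0 rose. Over all tested probe sets, 0.884% fell and 1.77% were called in either direction. Endothelial markers, 9 of 10 measured, lay at 8.05 to 8.13 in the knockout and 7.97 to 8.06 in wild type. They were lower at 3 genes, and none was called. Astrocyte markers lay at 10.80 to 10.96 in the knockout against 10.97 to 11.00 in wild type and went both ways: Aqp4, S100b and Acsbg1 fell by 0.59, 0.58 and 0.49, Gfap rose by 0.63, and the other 6 of 10 were not called. Meningeal and fibroblast markers were higher at all 10 genes without 1 of them passing, at 8.86 to 9.45 in the knockout and 8.66 to 8.91 in wild type. Red blood cell markers, 4 of 8 measured, lay at 4.61 to 5.07 in the knockout and 5.10 to 5.16 in wild type. Of these Alas2 fell by 0.87 (limma adjusted p = 0.0416). Hba-a1, Slc4a1 and Hemgn were dim, at brightness percentiles of 14.7, 24.2 and 4.11, and were not called. Choroid plexus markers lay at 5.18 to 5.32 in the knockout and at 5.33, 6.56 and 5.52 in wild type, where replicate 2 alone stood high. In bulk tissue, fewer cells of a type and less RNA per cell cannot be told apart.

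Lactate dehydrogenase gave the clearest change. Ldha encodes the A subunit, and its probe set 1419737_a_at had levels of 11.71, 11.80 and 11.63 in the knockout against 12.18, 12.13 and 12.21 in wild type. The groups did not overlap, and the gap between them was wider than the whole range within either. Ldha fell by 0.46 ± 0.08 on the log2 scale, a level 27.1% lower (95% interval 17.7% to 35.4% lower), with a limma adjusted p of 0.0320. It stayed lower in each omission of 1 array, with fold changes between -0.50 and -0.41, but the adjusted p ran between 0.0136 and 0.165 and was under the threshold only without knockout replicate 2. The mean level of 3 Y-linked genes was low in knockout replicate 3 and wild type replicate 1 (deviations of -2.52 and -2.51 from the mean over arrays) and high in the other 4 arrays (1.19 to 1.42). Each group thus held 1 low and 2 high arrays, the pattern of 1 female and 2 male samples. With this level as a covariate, the Ldha fold change was -0.46 and the adjusted p 0.0564. With the replicate number as a block, the fold change was -0.46 and the adjusted p 0.115.

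Ldhb encodes the B subunit and was read by 4 probe sets, none of which was called. The one with the highest mean, 1455235_x_at, read 12.51, 12.63 and 12.60 in the knockout and 12.57, 12.57 and 12.62 in wild type, so the groups overlapped. Its fold change was -0.01 ± 0.07, with a 95% interval of -0.17 to 0.16. The other 3 differed by -0.07 ± 0.07, -0.10 ± 0.08 and -0.06 ± 0.07, and in each the groups overlapped as well. Lower levels by up to 17.6% are within the intervals of these probe sets, so the data set a limit on an Ldhb change and do not show that there was none. The difference between the subunits was tested on its own, as the Ldha level minus the Ldhb level within each array. Ldhb was taken at 1455235_x_at, which had the smallest fold change of its probe sets. Levels of different probe sets have no common scale, so only the shift of this difference between groups is meaningful. It was -0.80, -0.83 and -0.97 in the knockout and -0.39, -0.45 and -0.41 in wild type, and it averaged -0.86 ± 0.09 in the knockout against -0.42 ± 0.03 in wild type (SD). The groups did not overlap, and the shift of -0.45 had an exact two-sided permutation p = 0.1, the smallest that 3 arrays against 3 allow (p = 0.133 adjusted over the 4 isozyme pairs compared), so this design cannot pass 0.05.

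The RefSeq promoter windows of the Ldh pair, which hold 250 bases before the start and 50 after it on build GRCm38.p6, are shown because the test called the A subunit and not the B subunit, together with that of Pfkl, which had the largest difference after Ldha. Capitals mark ACGTG and GCGTG, the core of the element bound by hypoxia-inducible factors, on either strand. The windows lie at chr7:46845554-46845853 (plus strand) for Ldha, chr6:142507908-142508207 (minus strand) for Ldhb and chr10:78009758-78010057 (minus strand) for Pfkl, and each is written 5′ to 3′ on the strand of its gene.
Ldha: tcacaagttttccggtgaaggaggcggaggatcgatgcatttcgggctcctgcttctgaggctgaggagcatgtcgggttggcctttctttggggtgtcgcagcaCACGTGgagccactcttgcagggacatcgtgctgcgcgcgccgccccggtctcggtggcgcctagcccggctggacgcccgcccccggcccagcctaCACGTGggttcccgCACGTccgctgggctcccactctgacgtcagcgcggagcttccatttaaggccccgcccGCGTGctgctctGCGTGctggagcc
Ldhb: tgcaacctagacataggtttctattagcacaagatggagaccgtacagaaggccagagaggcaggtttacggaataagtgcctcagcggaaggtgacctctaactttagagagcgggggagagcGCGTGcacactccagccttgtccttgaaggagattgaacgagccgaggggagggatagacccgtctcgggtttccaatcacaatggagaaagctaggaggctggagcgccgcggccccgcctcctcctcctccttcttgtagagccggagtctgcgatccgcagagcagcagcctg
Pfkl: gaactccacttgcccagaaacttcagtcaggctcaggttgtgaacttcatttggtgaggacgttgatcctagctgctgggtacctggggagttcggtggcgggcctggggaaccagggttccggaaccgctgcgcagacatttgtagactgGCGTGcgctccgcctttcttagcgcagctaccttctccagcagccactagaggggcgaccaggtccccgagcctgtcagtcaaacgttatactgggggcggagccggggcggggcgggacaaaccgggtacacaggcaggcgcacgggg
The Ldha window held 5 matches to ACGTG and 2 to GCGTG, and 2 copies of the E-box CACGTG. An E-box holds ACGTG on both strands, so each copy gives 2 of the 5 matches. The Ldhb and Pfkl windows held 1 match to GCGTG and 0 to ACGTG or CACGTG. RefSeq lists a second Ldha window, which had 2 matches to GCGTG. Across the 10 genes all had a window with either core, against 46.7% of the 27025 genes in the table, and 3 had the E-box (Ldha, Pfkm and Pfkfb3), against 8.09%. The GC box GGGCGG was found for 7, against 38.2%. A gene counts here if any of its windows has a match, and the number of windows per gene was not matched. By window, 15 of the 18 held either core, against 43.8% of all windows. The E-box was in 3, against 7.15%, and the GC box in 9, against 35.7%. The 18 windows of these genes had a median GC content of 61.7% and all 32851 windows 52.7%, and the shares were not matched for it. The matches describe these letters only, and genes whose transcripts hardly differed (Hk1 and Pfkm) had them too.

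Phosphofructokinase is the committing step, and none of its 3 subunit genes was called. Pfkl encodes the liver-type subunit. At its brightest probe set, 1439148_a_at, it had levels of 10.66, 10.69 and 10.43 in the knockout and 10.99, 11.06 and 11.00 in wild type. The groups stood apart, with knockout replicate 3 lowest. The fold change was -0.42 ± 0.09, 25.2% lower, and missed the threshold (limma adjusted p = 0.0645), which it passed without knockout replicate 2 (adjusted p = 0.0278, over a range of 0.0278 to 0.275 in the omissions of 1 array). It also passed with dim probe sets left out (adjusted p = 0.0410), with limma-trend and robust moderation (0.0190), with array weights (0.0120) and with 1 probe set per gene (0.0408). It did not pass with median centring (0.0641), further quantile normalization (0.0633), the Y-linked covariate (0.0700) or the replicate block (0.136). The second probe set, 1450269_a_at, read 10.08, 10.25 and 9.88 in the knockout and 10.40, 10.46 and 10.35 in wild type, again without overlap (-0.33 ± 0.10, adjusted p = 0.154 by limma). The third, 1453541_at, was dim, at the 23.2 percentile of all probe sets, and differed by -0.03 ± 0.08.

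Pfkp encodes the platelet-type subunit, which is abundant in brain. Its probe set 1416069_at had levels of 11.17, 11.15 and 11.07 in the knockout and 11.42, 11.36 and 11.44 in wild type. Here too no knockout array reached a wild type array. The fold change was -0.27 ± 0.07, 17.3% lower (limma adjusted p = 0.103). The other Pfkp probe sets differed by -0.27 ± 0.14, with overlapping groups, and by -0.22 ± 0.08, without overlap, and neither passed. The latter, 1437759_at, was dim, at the 39.6 percentile of all probe sets.

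Pfkm encodes the muscle-type subunit and was the only one of the 10 genes with a higher mean in the knockout. Its single probe set read 12.24, 12.28 and 12.27 in the knockout and 12.24, 12.20 and 12.22 in wild type. All 3 knockout arrays lay above wild type, the nearest by less than the rounding of these values, and the fold change of 0.04 ± 0.07 was far from a call (limma adjusted p = 0.817, 95% interval -0.11 to 0.20). The Pfkl level minus the Pfkm level was -1.58, -1.58 and -1.84 in knockout arrays and -1.25, -1.15 and -1.22 in wild type arrays. The Pfkp level minus the Pfkm level was -1.07, -1.12 and -1.20 in the knockout and -0.82, -0.84 and -0.78 in wild type. Both pairs separated the groups, with shifts of -0.46 and -0.32, each with an exact two-sided permutation p = 0.1 (0.133 adjusted over the 4 pairs). Averaging all probe sets of each gene made the shift of the pair with Pfkl smaller, at -0.30, since the dim probe set then counts.

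**Figure D2:**
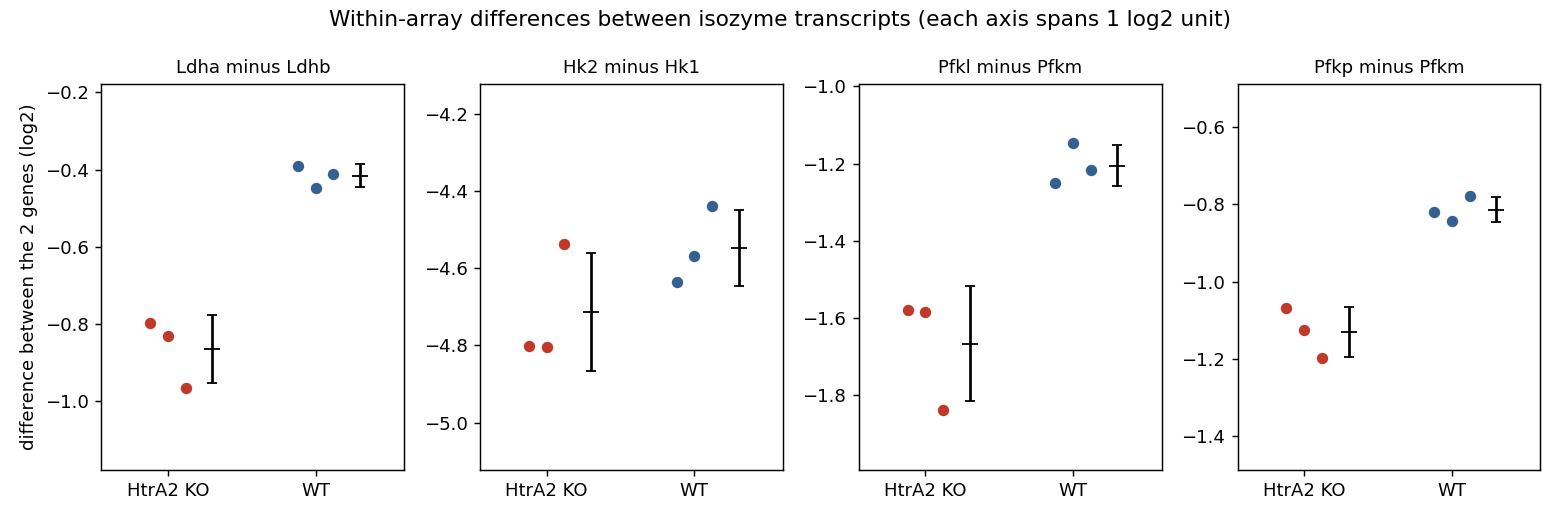
Log2 level of the first gene minus that of the second within each array, for the 4 isozyme pairs, with knockout arrays left and wild type arrays right and bars for mean and SD. The groups stand apart in 3 pairs, with shifts of -0.45, -0.46 and -0.32, and overlap for Hk2 minus Hk1.

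Pfkfb3 makes fructose 2,6-bisphosphate, the strongest activator of phosphofructokinase, and its protein is known to be kept low in neurons. The probe set 1416432_at read 7.24, 6.82 and 6.88 in the knockout and 7.18, 7.27 and 7.48 in wild type. Knockout replicate 1 lay inside the wild type range, and the fold change of -0.33 ± 0.13 was not called (limma adjusted p = 0.245). The other probe set, 1456676_a_at, read 5.84, 6.18 and 5.96 in the knockout and 6.10, 6.03 and 6.13 in wild type, and differed by -0.09 ± 0.10. Its knockout replicate 2 was the highest of all 6 arrays, whereas the same array was the lowest at the first probe set.

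The hexokinases stood at the entry of the pathway with little difference. Hk1, the main brain hexokinase, which binds the outer membrane of mitochondria, read 11.76, 11.73 and 11.73 in the knockout and 11.73, 11.73 and 11.77 in wild type at its brighter probe set. The arrays of both genotypes were interleaved, and the 95% interval of the fold change ran between -0.16 and 0.15, or 10.4% lower to 10.9% higher. The second Hk1 probe set differed by -0.02 ± 0.08. Hk2, the inducible hexokinase of muscle and fat, read 6.96, 6.92 and 7.19 in the knockout and 7.09, 7.16 and 7.33 in wild type. Replicate 3 was the highest array of each group, the groups overlapped, and the fold change was -0.17 ± 0.10 (limma adjusted p = 0.460). The Hk2 level minus the Hk1 level shifted by -0.17, with overlapping groups (exact two-sided permutation p = 0.3, also after adjustment over the 4 pairs).

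Aldoa, the aldolase of muscle and brain, and Pgk1, the first ATP-making enzyme of the pathway, showed small differences of similar size at all their probe sets. Aldoa at its brightest probe set, 1416921_x_at, read 13.11, 13.21 and 13.12 in the knockout and 13.26, 13.23 and 13.30 in wild type. Its 5 probe sets differed by -0.11 to -0.19, and in 4 of them the groups stood apart, though none passed (lowest adjusted p = 0.236 by limma). All 5 carry the suffix _x_at, by which Affymetrix marks probe sets that may also bind other transcripts, and all read the same RNA, so they are not separate evidence. The suffix also marks 1438640_x_at and 1439435_x_at of Pgk1, and 1455235_x_at and 1448237_x_at of Ldhb. Pgk1 at 1417864_at read 13.01, 13.14 and 12.98 in the knockout and 13.18, 13.17 and 13.20 in wild type. In both genes the knockout arrays were below wild type with knockout replicate 2 nearest to it. The 3 Pgk1 probe sets differed by -0.12 to -0.14, none with overlap and none called (lowest adjusted p = 0.392 by limma). Differences of this size, 7.35% to 12.4% lower for Aldoa and 8.03% to 9.21% lower for Pgk1, are near the shift of the neuron marker list, whose mean level was lower by 0.15 in the knockout (mean difference -0.15). The mean differences of the oligodendrocyte, microglial and astrocyte lists were -0.32, -0.28 and -0.12. Those of the meningeal and endothelial lists were 0.39 and 0.07. The part of cell makeup in the glycolysis values was not tested.

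**Figure D3:**
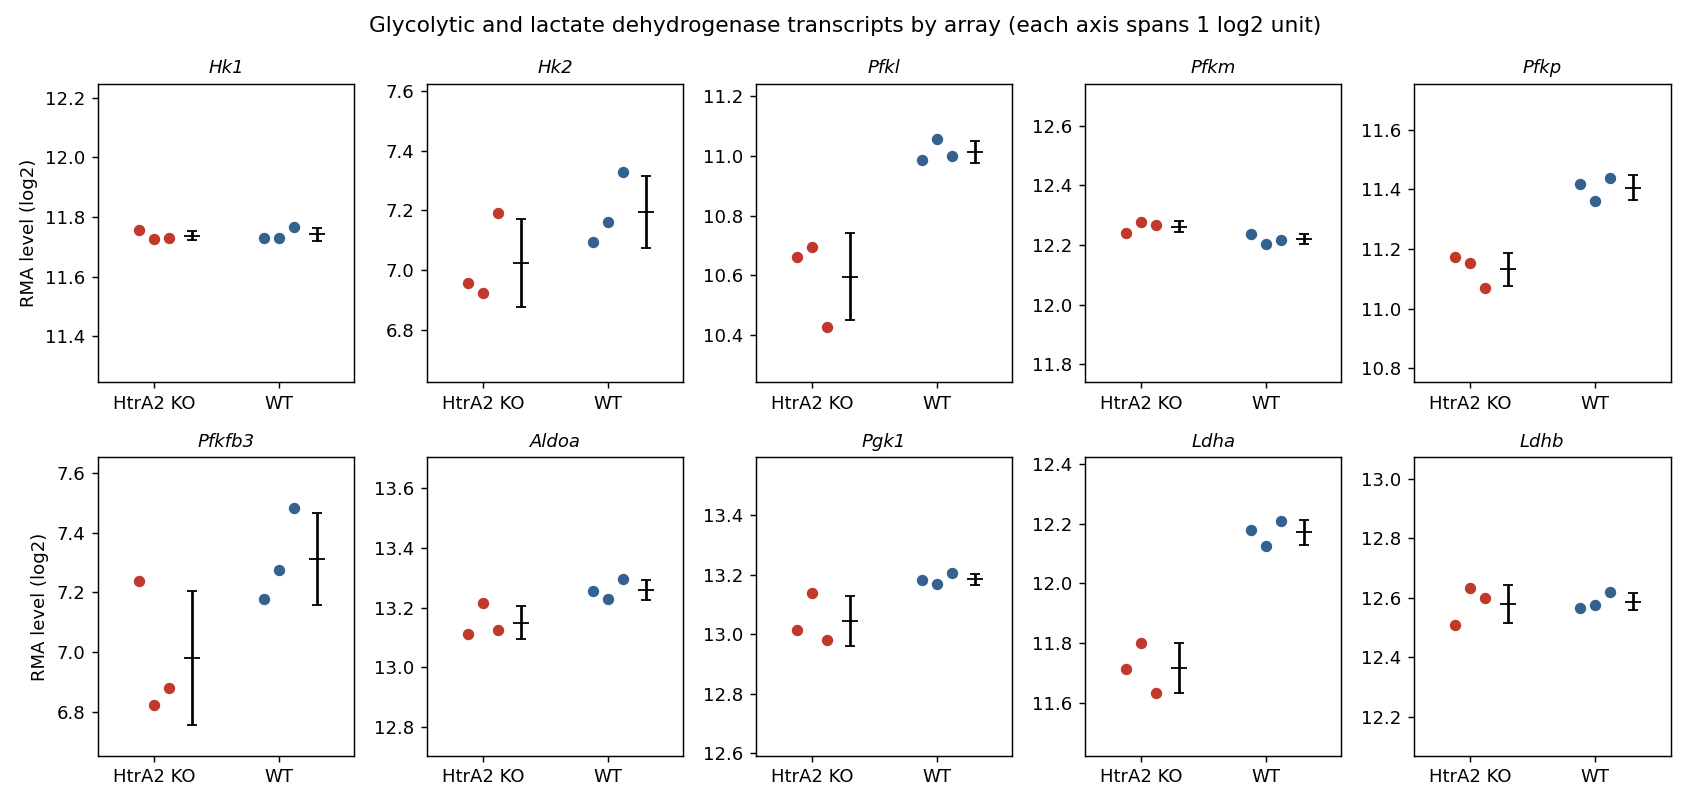
RMA level (log2) in each array at the brightest probe set of each gene, knockout left and wild type right, with bars for mean and SD and axes of equal span. Knockout arrays lie below all wild type arrays for Pfkl, Pfkp, Aldoa, Pgk1 and Ldha, with the widest gap for Ldha, and mix with them for Hk1, Hk2, Pfkfb3 and Ldhb.

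Taken per array, the 10 genes at their brightest probe sets had a median deviation from the wild type mean of -0.16, -0.15 and -0.17 in the 3 knockout arrays. In wild type arrays it was -0.01, -0.02 and 0.03, small by construction, since each gene is set against its own wild type mean. The knockout arrays thus differed little from each other in this median, replicate 2 included. At single genes they varied more, as for Pfkfb3 (-0.07, -0.49 and -0.43) and Pgk1 (-0.17, -0.05 and -0.20). Over the 6 arrays the Ldha level went with that of Pfkp (Pearson r = 0.99), Pfkl (0.96), Pgk1 (0.92) and Aldoa (0.92), less with Pfkfb3 (0.71) and Hk2 (0.52), little with Hk1 (0.19) and Ldhb (0.17), and opposite to Pfkm (-0.75). These are descriptions over 6 arrays in 2 genotype groups, and any gene that differs between the groups will track Ldha. The genes most like Ldha among all named ones were Sema4a, a semaphorin (r = 0.999), Rusc1 (0.998), Ywhah, a 14-3-3 protein (0.998), Rasgrf1, a Ras exchange factor of neurons (0.998), and Npepps, an aminopeptidase (0.998). Of these Sema4a fell by 0.73 ± 0.09 (limma adjusted p = 0.0134) and Rasgrf1 by 0.45 ± 0.08 (adjusted p = 0.0376). Rusc1, Ywhah and Npepps differed by -0.23, -0.26 and -0.28 and were not called.

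The rest of glycolysis was described from a list of 24 further enzymes, of which 18 had a probe set of their own. Gapdh, Gpi1 and Eno1 were among the 6 without one. One gene rose, 0 fell, and the median at the brightest probe set of each gene was -0.08, with 12 lower and 6 higher. At an unadjusted p under 0.05 stood 4 of its 34 probe sets, against 16.9% of all tested probe sets, a share that also applies to the counts at this limit in the lists that follow. Eno3, the muscle-type enolase, rose: it read 7.36, 7.18 and 7.45 in the knockout and 6.62, 6.75 and 6.91 in wild type, with no overlap (0.57 ± 0.10, limma adjusted p = 0.0421). Ldhd, a mitochondrial D-lactate dehydrogenase unrelated to the Ldh tetramer, differed by 0.29 ± 0.12 and 0.26 ± 0.09 at its 2 probe sets, and Hkdc1 by -0.25 ± 0.11 and 0.06 ± 0.12 at its 2, without passing. Among bright genes of this list, Tpi1 differed by -0.12, -0.19 and -0.14 at its probe sets, Pgam1 by -0.11 and Pkm by -0.07. The knockout arrays lay below all wild type arrays at each of these, and none was called. The same was true of 21.2% of all probe sets in the bright range described above. These genes were named for their brightness, and the probe sets of Tpi1 read the same RNA, so they are not separate evidence. For Aldoc (-0.12 at its brighter probe set) and Eno2 (0.05) the groups overlapped. Eno3 moved against Ldha. Skeletal muscle markers, 7 of 7 measured, lay at 6.02 to 6.03 in the knockout and 5.92 to 6.01 in wild type. Their part in the Eno3 value was not tested.

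Glucose and lactate carriers differed in both directions. Of 13 genes 1 fell and 0 rose, with a median of 0.04, and 4 of 25 probe sets had an unadjusted p under 0.05. Slc16a7, which encodes the monocarboxylate carrier MCT2 through which neurons take up lactate, read 7.19, 6.72 and 6.83 in the knockout and 7.82, 7.60 and 7.54 in wild type. The groups were apart, and Slc16a7 fell by 0.74 ± 0.13 (limma adjusted p = 0.0407). Emb, a partner protein of monocarboxylate carriers, differed by 0.29 ± 0.08 at its brightest probe set (adjusted p = 0.106). Slc2a1, the glucose carrier of the blood-brain barrier and of astrocytes, differed by 0.19 to 0.24 over its 3 probe sets, and its smallest adjusted p was 0.243.

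At the entry of pyruvate into mitochondria 1 of 13 measured genes fell and 0 rose, with a median of 0.02, and 3 of 22 probe sets had an unadjusted p under 0.05. Pdp1, the phosphatase that switches pyruvate dehydrogenase on, read 10.71, 10.54 and 10.74 in the knockout and 11.30, 11.17 and 11.07 in wild type at its brighter probe set. It fell there by 0.51 ± 0.09 (limma adjusted p = 0.0386) and at the other probe set by 0.55 ± 0.07 (adjusted p = 0.0157). Both of its probe sets thus passed, with a gap between groups wider than the spread within them. Pdhb, a subunit of pyruvate dehydrogenase, differed by -0.17 ± 0.07 and -0.09 ± 0.08, and the kinase gene Pdk1 by -0.14 to 0.09 over 4 probe sets.

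In the pentose phosphate pathway, which branches off after hexokinase, 0 of 7 measured genes were called by limma, while 4 of its 14 probe sets had an unadjusted p under 0.05, against the 16.9% of all tested ones. Rpe, a pentose epimerase, had the smallest p and differed by -0.39 ± 0.09 (adjusted p = 0.0807). Its other probe sets differed by -0.33 ± 0.09 and 0.11 ± 0.10. H6pd and Taldo1 differed by 0.24 ± 0.07 and -0.19 ± 0.07. Of 12 measured genes of glycogen metabolism 1 rose and 0 fell, with a median of -0.12, and 7 of 22 probe sets had an unadjusted p under 0.05. Pgm2, annotated as a phosphoglucomutase, read 7.61, 7.41 and 7.62 in the knockout and 6.88, 6.90 and 7.02 in wild type, and rose by 0.61 ± 0.09 (limma adjusted p = 0.0200). Ppp1r3c, which targets a phosphatase to glycogen, differed by -0.42 ± 0.08 at its brighter probe set, and narrowly missed the threshold (adjusted p = 0.0502). Its other probe set differed by -0.57 ± 0.12. Gyg, glycogenin, differed by -0.32 ± 0.08 and, at its brighter probe set with overlapping groups, by -0.18 ± 0.09.

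Hypoxia-inducible factors are known activators of Ldha, Pgk1, Aldoa and Hk2, so the regulators and other targets of these factors were listed as well. Of 19 measured genes 1 fell and 0 rose, and the median was -0.04, with 11 lower and 8 higher. An unadjusted p under 0.05 was found at 16 of its 42 probe sets, against 8 of 25 for the glycolysis genes and 16.9% of all tested probe sets. P4ha1, a collagen prolyl hydroxylase, read 6.83, 6.96 and 6.67 in the knockout and 7.63, 7.40 and 7.37 in wild type, and fell by 0.65 ± 0.11 (limma adjusted p = 0.0305), and its second probe set differed by -0.57 ± 0.11 (adjusted p = 0.0503). Ndrg1, another target, differed the other way, by 0.35 ± 0.07 at the probe set with the smallest p (adjusted p = 0.0604). Vhl, which marks these factors for breakdown, differed by -0.30 ± 0.08 and -0.20 ± 0.07. Hif1a, which encodes a part of these factors, differed by 0.25 ± 0.08 at its brightest probe set (limma adjusted p = 0.147). Its other probe sets differed by 0.24 ± 0.08, 0.22 ± 0.10 and 0.04 ± 0.12, and none was called. All knockout arrays lay above wild type at the probe sets with 0.25 and 0.24. The list joins parts of these factors, their regulators and their targets, which need not move together, so its split in direction decides nothing. Of the 10 genes, chosen with earlier results known, 9 were lower at the brightest probe set. Among the 18 other glycolysis enzymes 12 were lower and 6 higher. The difference between the lists was not tested.

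**Figure D4:**
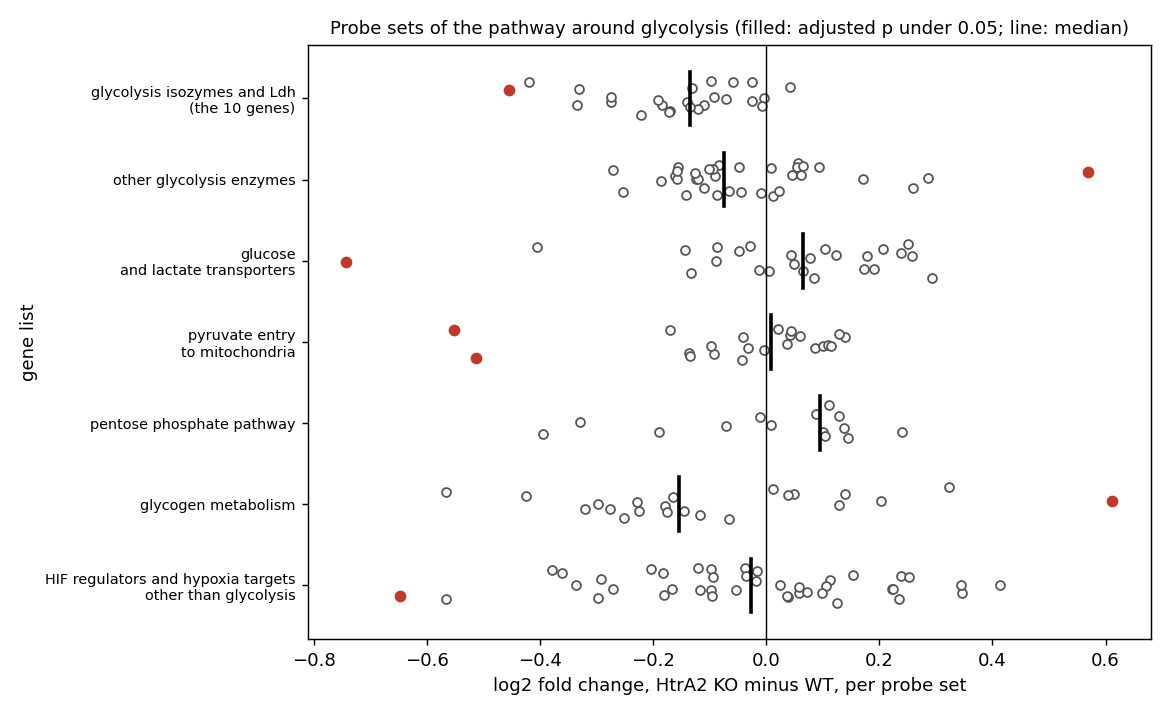
Log2 fold change of knockout minus wild type at each probe set of the 10 genes and of 6 lists around them, with a line at the median over probe sets and filled marks for an adjusted p under 0.05. Single genes pass on either side in the other lists, while the 25 probe sets of the 10 genes reach no higher than 0.04.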

How the data were processed

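Total RNA of mouse cortex was hybridised to 1 Affymetrix array per sample, per the labels' protocols. The deposited values are log2 levels per probe set made by the authors with RMA, per the submitters' processing notes, which give no version. The logarithm was read as base 2, which fits the range of the values. RMA brings all arrays close to a common distribution and can hide a shift shared by most transcripts. The number of arrays limits the precision.

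Of 45101 probe sets 64 array controls were left out. Of the rest, 34945 had 1 gene symbol in the platform annotation, 932 had several and 9160 had none; 34741 were found in RefSeq (GRCm38.p6) by gene identifier. One probe set that names Hk1 among several genes was not used. Both genotypes were fitted with limma 3.58.1 in R 4.3.3 (lmFit and eBayes, two-sided), with genotype alone in the model and no filter. Isozyme differences were compared by exact permutation over the arrays. The fit was run on simulated data with added changes larger than those of any member, so the run does not measure recovery at the sizes reported here. The members and lists were chosen with earlier results of these data known. Named genes were all members, Htra2, every called gene of each list with the 3 of smallest p, and the 5 genes most correlated with Ldha. Bright genes of the list of other glycolysis enzymes and Hif1a were named as well.

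The labels give no batch and do not say that replicate numbers pair animals. Deviations of same-numbered arrays correlated at -0.20, -0.04 and -0.17, which shows no pairing. Correlations among so few arrays cannot exclude one. The replicate number entered as a block once, as a separate setting. The further settings were omission of each array, 1 probe set per gene, a threshold of 0.10, removal of dim probe sets, array weights, a Y-linked covariate, median centring, repeated quantile normalization and robust limma-trend.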

Additional observations from a re-analysis of the deposited data

How the results depend on the processing

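The count of called glycolysis probe sets, 1 of 25, was 2 with dim probe sets left out, 2 with 1 probe set per gene and 2 at an adjusted p under 0.10 (Ldha and Pfkl each time), 3 with limma-trend and robust moderation (with Pfkp) and 4 with array weights. It was 0 in limma with the replicate block and 0 with the Y-linked covariate, where 4 and 7 had an unadjusted p under 0.05, and between 0 and 3 when 1 array was left out. Over all probe sets the count of 796 became 1361, 2035, 1770 and 4205 with the dim filter, the 0.10 threshold, limma-trend and array weights, 154 with the replicate block, 445 with the Y-linked covariate and 65 to 3037 without 1 array. Ldha kept its direction in every setting run. Its fold change was -0.46 with the replicate block and -0.46 with the Y-linked covariate, both past the threshold no longer, and -0.50 to -0.41 without 1 array. The cause was not tested. The shift of Pfkl minus Pfkm was -0.30 over all probe sets, through the dim probe set of Pfkl. Values near zero changed sign: Hk1 at 1437974_a_at was 0.00953 after quantile normalization, 0.00219 after median centring, 0.00418 with array weights and -0.0138 to 0.00816 without 1 array, and at 1420901_a_at -0.0679 to 0.0100 without 1 array. Ldhb at 1455235_x_at was 0.000744 after quantile normalization and -0.0333 to 0.0287 without 1 array, and Pfkl at 1453541_at was -0.0757 to 0.0183 without 1 array. Between 22 and 24 of the 25 probe sets were lower in each setting that kept all 25. The replicate block changed no other call of these 25. With 3 arrays a group, probe sets at or below background cannot be ranked, which touches the dim ones of Pfkl and Pfkp.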
